A study of Homo sapiens with 12 samples.

Results

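The genes described here encode the proteins of the cytosolic ribosome, and the question was where cohesin and CTCF were found at their start sites when the release or the loading of cohesin was impaired. Members were the protein-coding genes of chromosomes 1 to 22 in the GENCODE annotation of GRCh37 whose symbol is RPL or RPS with a number, together with RPLP0, RPLP1, RPLP2 and RPSA, and without the RPS6K kinases. This rule gave 77 of 19229 protein-coding genes, 46 of the large (60S) and 31 of the small (40S) ribosomal subunit. The rule uses names only and no measured value. Peak lists came from ChIP-seq (sequencing of DNA precipitated with an antibody) in HAP1, a near-haploid human leukaemia cell line with impaired p53, for the cohesin subunit SMC1, for CTCF (the zinc-finger factor at most loop anchors) and for control IgG. Each was measured in the wild-type line, in ΔWAPL (the gene of WAPL, which releases cohesin, disrupted by a blasticidin cassette), in ΔSCC4 (the gene of SCC4, partner of SCC2 in loading cohesin, disrupted by a puromycin cassette), and in ΔWAPL/ΔSCC4, where SCC4 was knocked out in the WAPL-deficient line and which is called the double knockout below. Where 4 values are given in a row, they follow this order of genotypes. The knockout lines are clones, so clonal differences and the deletion cannot be told apart. There was 1 library for each antibody and genotype, and therefore no replicate check and no test between genotypes.

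A gene was counted as having a summit when the highest point of at least 1 peak lay within 1 kb of any annotated transcript start. The SMC1 lists held between 12779 (ΔSCC4) and 33952 (ΔWAPL) peaks. The lists give peaks and not reads, but the depth could be recovered from the peak statistics. The genome-wide average was between 6.79 and 8.41 reads per kb in the 4 SMC1 libraries and between 6.53 and 8.41 reads per kb in the 4 CTCF libraries. A weak site can be missed at this depth, so a gene without a summit has no called peak and is not shown to lack the protein. In the control, none of the 77 genes had an IgG summit in any genotype. IgG summits were rare at all protein-coding genes too, at 7, 7, 4 and 6 of 19229, so their absence says little about the members.

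Ribosomal protein genes are short, constantly active housekeeping genes, and cells use them together to keep the subunits of the ribosome in balance. Their RNAs begin with an uninterrupted run of pyrimidines, the 5′ terminal oligopyrimidine (TOP) motif, through which the mTOR pathway controls their translation. Cohesin is a ring that holds DNA and extrudes loops. It is loaded with the help of SCC2/SCC4, is halted at CTCF sites, and is taken off DNA by WAPL.

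The first sequences show CTCF sites that lie at ribosomal protein genes in all 4 genotypes. They are the sites of highest wild-type CTCF fold enrichment, in that order, with a letter match to the core AGGGGGC or AGGTGGC within 50 bp of the wild-type summit, and the capitals mark that core. The sequences are from GRCh37, 5′ to 3′ on the strand of the match. They lie at chr1:93297481-93297510 (plus strand) upstream of RPL5 and at chr12:120639131-120639160 (minus) upstream of RPLP0. The RPL39L site, chr3:186857614-186857643 (plus), lies in an intron of the gene, upstream of its canonical start. The last sites are chr12:112856989-112857018 (plus) at a distant start of RPL6 and chr17:72199684-72199713 (plus) upstream of RPL38.
RPL5: cctccttccagcAGGGGGCggaacgtaaaa
RPLP0: ctccagcccagcAGGTGGCagcagctcaga
RPL39L: gccaatgcctccAGGGGGCgctctccctcc
RPL6: gccccgtccggaAGGGGGCgccccggccgg
RPL38: acttcgaccacaAGGGGGCagggctgctga
The core was present at 7 of the 29 wild-type CTCF summits of ribosomal protein genes (24.1%), at 26.3% of all wild-type CTCF summits of these chromosomes, and in 3.03% of the windows of the same length 1 kb downstream of those summits.

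The second set shows start sites, from 45 bases before to 15 bases from the annotated start of the canonical transcript on the strand of the gene. The capitals mark the longest pyrimidine run that reaches within 6 bases of the start. Only windows with at most 30 untranslated bases are shown. The first 5 genes, by falling fold enrichment, had an SMC1 summit and no CTCF summit in ΔWAPL cells: RPS27 (chr1:153963193-153963252), RPS12 (chr6:133135663-133135722), RPL12 (chr9:130213671-130213730), RPS3 (chr11:75110517-75110576) and RPL27A (chr11:8704294-8704353).
RPS27: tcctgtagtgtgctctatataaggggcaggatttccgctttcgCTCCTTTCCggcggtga
RPS12: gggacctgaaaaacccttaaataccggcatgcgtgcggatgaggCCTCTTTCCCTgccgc
RPL12: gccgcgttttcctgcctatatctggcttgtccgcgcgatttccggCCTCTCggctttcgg
RPS3: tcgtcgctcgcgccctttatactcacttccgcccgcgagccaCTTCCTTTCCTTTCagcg
RPL27A: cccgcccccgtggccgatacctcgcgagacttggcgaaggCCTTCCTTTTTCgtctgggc
The next 5 genes had no SMC1 summit in any genotype: RPL13 (chr16:89627045-89627104), RPL18 (chr19:49122421-49122480), RPL19 (chr17:37356491-37356550), RPL23A (chr17:27046958-27047017) and RPL24 (chr3:101405548-101405607).
RPL13: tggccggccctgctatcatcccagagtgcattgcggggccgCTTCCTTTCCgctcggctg
RPL18: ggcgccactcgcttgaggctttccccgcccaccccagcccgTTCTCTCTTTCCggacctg
RPL19: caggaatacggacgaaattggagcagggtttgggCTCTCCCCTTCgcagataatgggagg
RPL23A: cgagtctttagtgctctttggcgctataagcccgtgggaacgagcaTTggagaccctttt
RPL24: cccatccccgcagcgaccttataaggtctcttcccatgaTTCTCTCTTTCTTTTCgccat
Pyrimidine runs stood at or beside the start in both sets. The runs of RPL12 and RPL23A were the shortest of the 10 shown, and that of RPL19 ended before the annotated start.

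Without WAPL, SMC1 summits were found at many more ribosomal protein genes, 46 compared with 14 in wild-type cells. Without SCC4 there were 7, and in the double knockout 17. In the order of genotypes these were 18.2% (95% Wilson interval 11.2 to 28.2), 59.7% (48.6 to 70.0), 9.09% (4.47 to 17.6) and 22.1% (14.3 to 32.5) of the 77 genes. Among all protein-coding genes, 17.6%, 44.4%, 12.1% and 24.7% had an SMC1 summit in the same order. The intervals, which cover counting error only, lay above the share of all genes in the ΔWAPL list and held it in the other 3. With only peaks of at least 5-fold enrichment the ΔWAPL share was 32.5% (23.1 to 43.5) beside 26.9% of all genes. Keeping peaks whose −log10 q was 10 or more gave 26.0% (17.5 to 36.7) beside 19.4%, and both intervals held the share of all genes. An SMC1 summit was present in ΔWAPL and not in wild-type cells at 34 members (44.2%), compared with 27.4% of all genes.

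Ribosomal protein genes have more annotated transcript starts than other genes, with a median of 8 against 5, and more starts give more room for a summit. Among genes with 1 to 5 starts, 64.7% of 17 members and 32.9% of the other genes had an SMC1 summit in ΔWAPL cells. With 6 to 10 starts the shares were 54.8% of 42 members and 51.2% of the others, and with 11 to 20 starts 64.7% of 17 members and 60.4%. The 1 member with more starts had a summit. Counting only the canonical start of each gene, a choice made after seeing the data, gave 41 members (53.2%) and 37.5% of all genes in ΔWAPL cells.

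CTCF summits were present at 29, 29, 26 and 28 members. The shares were 37.7%, 37.7%, 33.8% and 36.4%, compared with 29.7%, 30.0%, 26.4% and 31.5% of all genes. Of the members with CTCF, 10 of 29 also had SMC1 in wild-type cells, and 27 of 29 did without WAPL. In the lists without SCC4 it was 6 of 26 for the single and 14 of 28 for the double knockout. The corresponding shares of all genes with CTCF were 50.1%, 84.6%, 39.6% and 61.6%. SMC1 with no CTCF summit at the same gene was found at 4, 19, 1 and 3 members, or 5.19%, 24.7%, 1.30% and 3.90%. For all genes these shares were 2.77%, 19.0%, 1.61% and 5.28%. The 24.7% of ΔWAPL cells had an interval of 16.4 to 35.3%, which held the share of all genes.

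**Figure D1:**
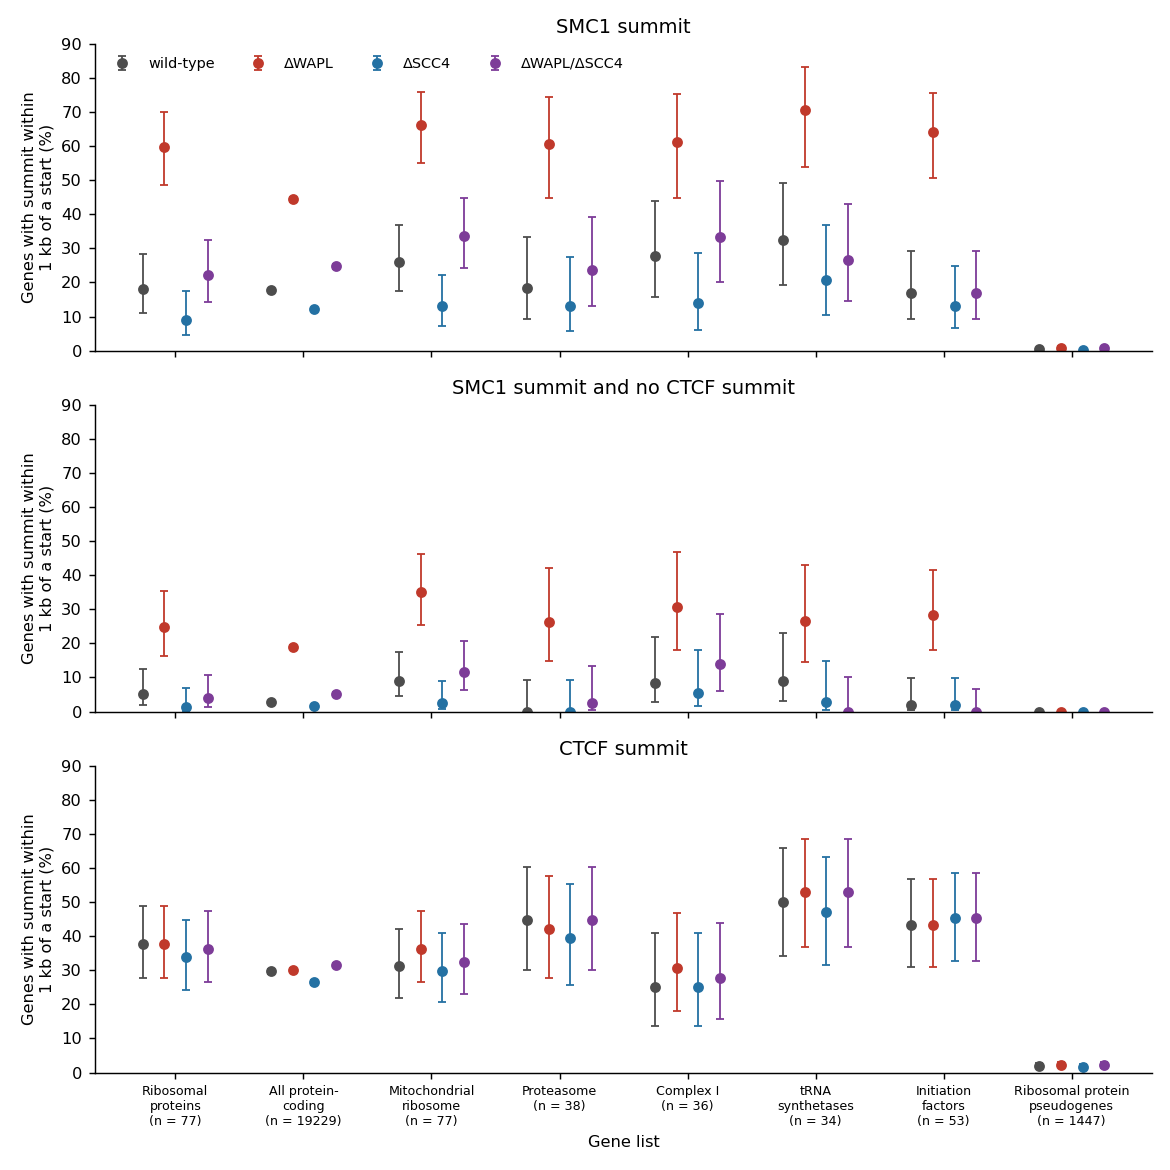
Share of genes (y axis, %) with an SMC1 summit, an SMC1 summit and no CTCF summit, or a CTCF summit within 1 kb of a start, by gene list (x axis) and genotype (colour); points are 1 library each and bars are 95% Wilson intervals, which cover counting error only. In ΔWAPL cells the ribosomal protein genes reached 59.7% for SMC1, beside 44.4% of all protein-coding genes, while their CTCF shares stayed between 33.8% and 37.7%.

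SMC1 was called in all 4 genotypes at 5 genes: RPL26, RPL10A, RPL39L, RPL7 and RPS27L. These were 10.4% of the 48 members with SMC1 in any list, and over all genes the share was 20.8%. RPL26, a protein near the exit of the nascent chain, had SMC1 fold enrichments of 8.67, 13.5, 7.17 and 11.3. The ΔWAPL value was the highest of the 46 members in that list. The summits lay from 372 to 397 bp upstream of the canonical start, between 229 and 267 bp from the CTCF summit. RPL10A, a protein of the L1 stalk, had 8.53, 11.6, 5.68 and 8.17, with SMC1 and CTCF summits at most 30 bp apart.

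RPL39L, a paralogue of RPL39 known mainly from male germ cells, had SMC1 fold enrichments of 6.70, 10.2, 4.59 and 6.95. At RPL7, a large-subunit protein, the values were 7.91, 8.51, 5.98 and 5.81. The RPL7 summits lay 1348 to 1429 bp upstream of the canonical start and were nearer to a start of RDH10, a retinol dehydrogenase gene, than to any of RPL7. RPS27L, a paralogue of RPS27 known as a p53 target, had 3.95, 5.61, 4.13 and 3.79, and was the only gene of the 5 whose SMC1 peak overlapped no CTCF peak in any genotype.

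Reads over the summit divided by the average of the library gave an SMC1 level that can be set side by side between libraries. At RPL26 this level was 27.9, 74.1, 14.9 and 35.7. At RPL10A it was 21.6, 40.2, 10.2 and 17.5. At RPL39L it was 14.6, 33.9, 8.37 and 16.9, so that these genes had the same order at the top and bottom, with ΔWAPL highest and ΔSCC4 lowest. At RPS27L the level was 14.6, 23.8, 14.9 and 14.9, and only the ΔWAPL library stood apart.

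Other genes with SMC1 in wild-type cells included RPS3A, RPL5, RPL6, RPLP0, RPS15, RPL17, RPS7 and RPL37. RPS3A, a small-subunit protein, had a level of 11.4 in wild-type cells, a 3.41-fold higher one of 38.9 without WAPL, and 12.97 in the double knockout. RPL5 had levels of 8.88, 23.8 and 12.3 in these genotypes. Neither was called in ΔSCC4 cells.

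RPS7 and RPL37 were called in wild-type cells only. They made up 14.3% of the 14 members with SMC1 in wild-type cells, compared with 2.27% over all genes. The fold enrichments of RPS7 and RPL37 were 4.34 and 4.07, from 11 and 12 reads over the summit, compared with 44 reads at RPL26. RPL17 was at a level of 8.88 in wild-type and 9.41 in ΔWAPL cells. At the 12 members called in both, the ratio of the ΔWAPL to the wild-type level had a median of 1.95 and ran from 1.06 to 3.41, and all 12 were above 1; over all genes called in both the median was 1.83. The median ratio to wild-type was 0.574 at 5 members in ΔSCC4 cells (all genes 0.798) and 1.12 at 10 members in the double knockout (all genes 1.25). Ratios need a peak in both lists, so sites that fell below the caller's limit do not enter them. With the deposited fold enrichment, whose local background also changes, the median ratios were 1.44, 0.756 and 1.05, and 11 of the 12 ΔWAPL ratios were above 1, with RPL17 at 0.943.

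**Figure D2:**
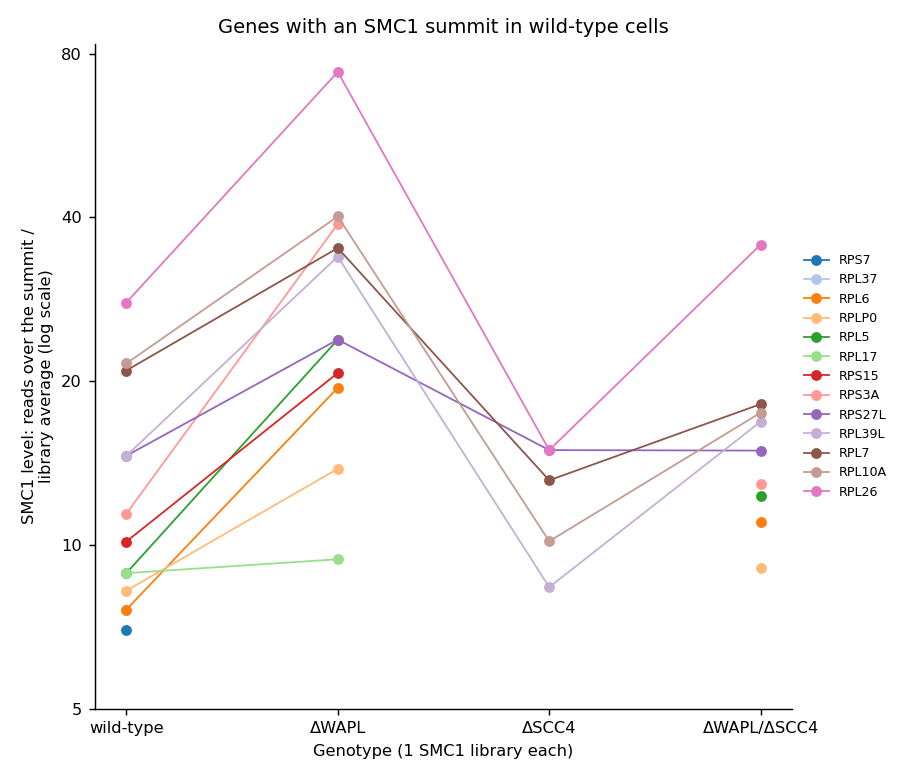
SMC1 level (reads over the summit divided by the library average, y axis, log scale) at 13 of the 14 members with an SMC1 summit in wild-type cells, by genotype (x axis, 1 library each); lines join the libraries of 1 gene where it was called in neighbouring ones. ΔWAPL is the highest genotype for each of the 11 members drawn in it, led by RPL26 at 74.1.

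The 34 members with SMC1 in ΔWAPL and not in wild-type cells fell into those with and those without CTCF. The strongest had CTCF: RPS20, a protein of the 40S head, had an SMC1 fold enrichment of 10.2 in ΔWAPL cells and 5.28 in the double knockout. RPS26, a protein at the mRNA exit of the 40S subunit, had 9.70 and 4.86. RPL10L, a paralogue of RPL10 known from testis, had 8.39 and 7.08. RPL11 had 8.60, RPL27 7.94, RPS14 7.58 and RPL38 6.24 in ΔWAPL cells and no SMC1 summit in the other genotypes. RPSA, with 7.25 in ΔWAPL cells only, also had a CTCF summit there. Its strongest SMC1 peak, however, overlapped no CTCF peak of that genotype. The CTCF peak was present at RPL11, RPL27, RPS14 and RPL38 in all 4 genotypes, so at these genes SMC1 was listed in ΔWAPL cells only, beside CTCF listed throughout.

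Without a CTCF summit, SMC1 was found in ΔWAPL cells at 9 members of the large and 10 of the small subunit. After RPS27L, the highest fold enrichments were those of RPL37A (5.50), RPL21 (5.27), RPL31 (5.24), RPS27 (5.06), RPS23 (4.76), RPL15 (4.67) and RPS12 (4.60). All of these were called in ΔWAPL cells only, apart from RPL15, which was also called in the double knockout with 4.11. SMC1 peaks that overlapped a CTCF peak had a median fold enrichment of 7.50 at 24 members, and those that did not had 4.58 at 22 members. The nearest CTCF summit of ΔWAPL cells lay between 479 and 78817 bp from the latter. Over all genes, the median was 6.94 with a CTCF summit at the gene and 4.59 without; by that gene-level count the members had 7.25 at 27 and 4.58 at 19. At 17 of the 46 members the ΔWAPL summit rested on fewer than 20 reads.

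The weakest of the 46 was RPL4, with a fold enrichment of 3.09. RPL4, RPLP1 and RPS27L lie on chromosome 15, and their local backgrounds in the ΔWAPL SMC1 library were 6.12, 5.10 and 5.95 reads, against a median of 3.54 reads over the 46 members. The fold enrichment divides by this background, and by level RPL4 stood at 13.2 and RPLP1 at 14.4, beside a median of 13.5 for the 46. The level divides by the library average and not by the local background, so a regional excess of reads would raise it. The levels of these chromosome 15 genes may therefore not be comparable with those of other members. The source of their higher background was not tested.

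**Figure D3:**
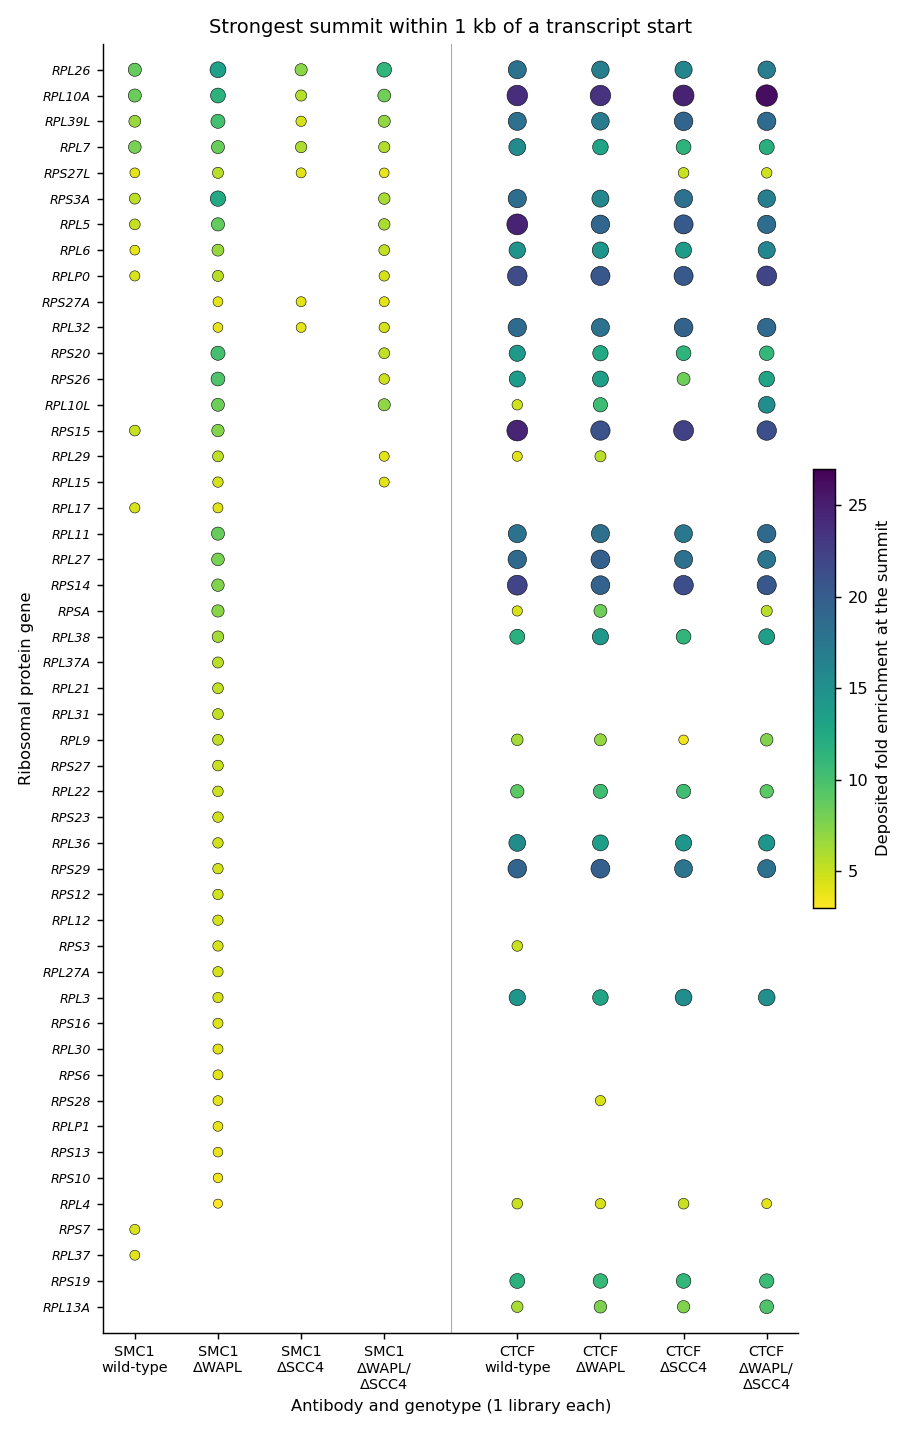
Deposited fold enrichment (colour and point size) of the strongest SMC1 and CTCF summit at the ribosomal protein genes (y axis, 1 left out) with a summit in any of the 8 lists (x axis); an empty place means that no summit was called within 1 kb. The ΔWAPL column of SMC1 holds 45 of the 46 genes and the ΔSCC4 column 7, while 24 genes have a point in all 4 CTCF columns.

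All 7 genes with SMC1 in ΔSCC4 cells and all 17 of the double knockout were also called in ΔWAPL cells. Over all genes these shares were 97.3% and 94.0%. Of the 14 wild-type genes, 5 (35.7%) were called without SCC4 and 10 (71.4%) in the double knockout, compared with 57.3% and 84.4% of all genes with SMC1 in wild-type cells. The 2 genes called in ΔSCC4 and not in wild-type cells were RPL32 and RPS27A. The other 5 of the 7 (71.4%) were shared with wild-type cells, beside 83.6% over all genes. RPS27A, which encodes ubiquitin fused to a small-subunit protein, had SMC1 fold enrichments of 3.97, 4.11 and 4.08 in the 3 knockout lines, with no CTCF summit in any genotype. Its start lies 125 bp from one of CLHC1, and the summits were 70 to 145 bp from the CLHC1 start, so the signal of these neighbours cannot be told apart.

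The double knockout also held 7 genes that wild-type cells lacked: RPL10L, RPL15, RPL29, RPL32, RPS20, RPS26 and RPS27A. The other 10 of its 17 genes (58.8%) were shared with wild-type cells, near the 60.3% over all genes. At the 17 members called with and without SCC4 in WAPL-deficient cells, the SMC1 level in the double knockout was 0.516 of that in ΔWAPL cells in the median, with a range from 0.333 at RPS3A to 0.964 at RPL32, and was below 1 at all 17. By deposited fold enrichment, RPL32 (3.84 in ΔWAPL cells and 4.59 in the double knockout) and RPS27A (3.97 and 4.08) went the other way. The other members of these 17 were lower in the double knockout by that measure too. The level ratio was not taken over all genes. Their median ratio to wild-type was also lower in the double knockout (1.25) than in ΔWAPL cells (1.83). The 27 members called in ΔWAPL cells only made up 58.7% of the ΔWAPL genes, compared with 41.3% over all genes.

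In ΔWAPL cells 31 of the 46 strongest SMC1 summits lay within 250 bp of the canonical start. Only summits within 1 kb of an annotated start were counted, so closeness is partly set by that rule. Positions were not taken over all genes. At CTCF peaks, 21 of 24 SMC1 summits were upstream of the start, with a median distance of 219 bp in either direction and 32.5 bp to the CTCF summit. Away from CTCF, 11 were upstream and 11 downstream, with a median of 128 bp. By annotation, 24 summits lay outside the gene, 14 in untranslated exons, 6 in introns and 2 in coding exons. Another annotated coding gene started within 1 kb of 9 of the 22 summits away from CTCF and of 6 of the 24 at CTCF. The 9 include RPL17 and RPS10, where the nearest such gene was RPL17-C18orf32 or RPS10-NUDT3, whose joined names include the member.

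Some summits belonged to distant or shared starts. At RPL22, RPL3, RPL6, RPL7 and RPS29 the strongest ΔWAPL summit was more than 1 kb from the canonical start and was reached through another annotated transcript. The RPL6 summit lay 9673 bp upstream of the canonical start and 166 bp from a start of PTPN11, which encodes the phosphatase SHP2. The RPS29 summit lay 12543 bp upstream and 17 bp from a start of LRR1, while the CTCF peak of RPS29 was 647 bp upstream of its canonical start. In all, 6 of the 46 summits were nearer to a start of another annotated coding gene than to any of the ribosomal protein gene. At RPS10 that other gene was RPS10-NUDT3, whose joined name includes RPS10, and the 2 starts lay 149 and 147 bp from the summit.

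**Figure D4:**
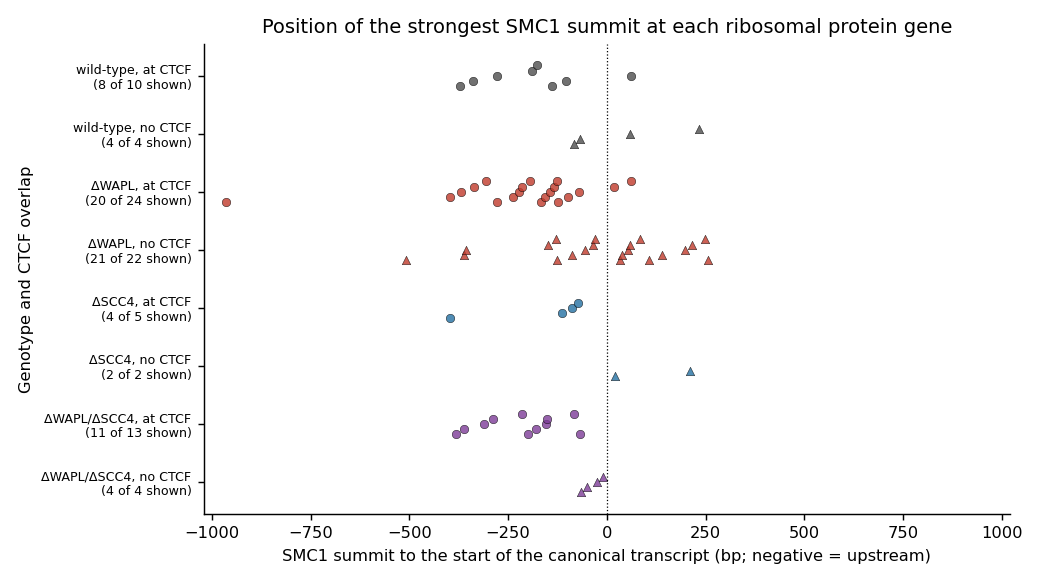
Distance in bp from the start of the canonical transcript (x axis, negative upstream) to the strongest SMC1 summit of each ribosomal protein gene, by genotype and by overlap with a CTCF peak of the same genotype (rows; circles overlap, triangles do not). Vertical spread within a row only separates points; summits beyond 1 kb are counted in the row labels but not drawn. ΔWAPL summits at CTCF lie mostly upstream, and those without CTCF on both sides.

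CTCF itself was listed at the same genes in most genotypes. Of the 31 members with a CTCF summit in any list, 25 (80.6%) had one in all 4, compared with 69.0% over all genes. The highest wild-type fold enrichments were those of RPL5 (24.7), RPS15 (24.6), RPL10A (23.9), RPS14 (22.2) and RPLP0 (21.5). At RPL10A the CTCF values were 23.9, 23.6, 24.7 and 26.2, a narrower range than its SMC1 values. At RPL5 they were 24.7, 19.2, 20.3 and 18.5. The median ratio of the CTCF fold enrichment to wild-type was 0.970 at 28 members in ΔWAPL cells, 0.959 at 25 in ΔSCC4 cells and 0.936 at 27 in the double knockout, and 0.949, 0.901 and 0.952 over all genes. By level, the measure used for SMC1 above, the median CTCF ratios were lower in the single knockouts. They were 0.86 in ΔWAPL cells, 0.84 in ΔSCC4 cells and 0.95 at 26 members in the double knockout. Over all genes they were 0.80, 0.80 and 0.93.

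The other 6 members with CTCF, RPL10L, RPL29, RPS27L, RPS28, RPS3 and RPSA, were listed in part of the genotypes. At RPL10L CTCF was 4.80 in wild-type cells, 10.6 without WAPL and 15.2 in the double knockout, with no summit in ΔSCC4 cells. At RPSA, a 40S protein also known as the laminin receptor precursor, the strongest CTCF summit had 4.47, 8.27 and 5.60 in these genotypes, again with none in ΔSCC4 cells, but at different places: 279 and 235 bp downstream of the canonical start in wild-type and double knockout cells and 230 bp upstream in ΔWAPL cells. RPSA had 2 SMC1 peaks in ΔWAPL cells. The stronger, of 7.25, lay 249 bp downstream of the canonical start, between the downstream CTCF positions of the other lists and 479 bp from the nearest CTCF summit of ΔWAPL cells, and the weaker, of 3.47, lay upstream and 24 bp from a CTCF summit. Of the 25 members with CTCF in all genotypes, 10 (40%) had SMC1 in wild-type and 23 (92%) in ΔWAPL cells. These shares were not taken over all genes with CTCF in all 4 lists. Among all genes with CTCF in the same genotype, SMC1 was found at 50.1% in wild-type and 84.6% in ΔWAPL cells. Of the 25, RPL13A and RPS19 had no SMC1 in any genotype, with wild-type CTCF fold enrichments of 6.12 and 11.6.

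The P-stalk genes, whose products recruit translation factors to the 60S subunit, differed from each other. RPLP0, the base of the stalk, had SMC1 fold enrichments of 4.36 in wild-type cells, 5.50 without WAPL and 4.59 in the double knockout, and CTCF in all genotypes. RPLP1 had SMC1 of 3.94 in ΔWAPL cells only, with no CTCF. RPLP2 had no SMC1 and no CTCF summit. RPL5 and RPL11, which form a particle with 5S rRNA and hold MDM2 when ribosome assembly fails, both had SMC1 and CTCF in ΔWAPL cells, with SMC1 of 8.76 and 8.60; in wild-type cells SMC1 was listed at RPL5 only, with 5.14.

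Of 9 genes known to be mutated in Diamond-Blackfan anaemia, SMC1 was found at 2 in wild-type (RPL5 and RPS7), 4 in ΔWAPL (RPL5, RPL11, RPS26 and RPS10), 0 in ΔSCC4 and 2 in double knockout cells (RPL5 and RPS26). These shares were 22.2%, 44.4%, 0% and 22.2%, beside 17.6%, 44.4%, 12.1% and 24.7% of all protein-coding genes. A count of 0 of 9 allows a share of up to 29.9% by the Wilson interval. RPS19, the gene first linked to the disease, RPS24 and RPL35A were among those with SMC1 in no genotype.

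No SMC1 summit was found in any genotype at 29 members, of which 27 had no CTCF summit either. The 29 were 37.7% of the members, and 53.5% of all protein-coding genes had SMC1 in no list. In alphabetical order the first 10 were RPL13, RPL13A, RPL14, RPL18, RPL19, RPL23, RPL23A, RPL24, RPL28 and RPL34. The distance from their starts to the nearest SMC1 summit ran, over the 29, from 1.43 to 107 kb in ΔWAPL cells with a median of 8.39 kb, and from 1.83 to 179 kb in wild-type cells with a median of 11.6 kb. RPL23A had a summit 3.70 kb away in wild-type and 3.72 kb in ΔWAPL cells, and RPS15A had none nearer than 179 kb in wild-type and 10.9 kb in ΔWAPL cells. Their median gene length was 4437 bp, compared with 5548 bp for the 77 members and 27568 bp for all protein-coding genes.

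The large and the small subunit had similar total shares in ΔWAPL cells, with SMC1 at 28 of 46 (60.9%) and 18 of 31 (58.1%) genes. SMC1 with a CTCF summit stood at 41.3% (28.3 to 55.7) and 25.8% (13.7 to 43.25), beside 25.4% of all genes. SMC1 without one stood at 19.6% (10.65 to 33.2) and 32.3% (18.6 to 49.9), beside 19.0% of all genes. The intervals of the subunits overlapped in both cases. Other gene lists of basic cell functions were counted in the same way. In ΔWAPL cells SMC1 was found at 51 of 77 genes of the mitochondrial ribosome (66.2%), 23 of 38 of the proteasome (60.5%), 22 of 36 of respiratory complex I (61.1%), 24 of 34 aminoacyl-tRNA synthetase genes (70.6%) and 34 of 53 of initiation factors (64.2%). The 59.7% of the ribosomal protein genes lay within the interval of each of these lists. Processed pseudogenes of ribosomal proteins, copies of the mRNA inserted elsewhere without the promoter, had SMC1 at 6, 12, 3 and 9 of 1447, at most 0.829%, and each of these had a CTCF summit too. At the ends of the ribosomal protein genes SMC1 was found at 2, 6, 2 and 3 of 77 (2.60%, 7.79%, 2.60% and 3.90%), near the 3.61%, 5.85%, 2.25% and 4.38% of all genes.

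The start sequences of the members were compared with those of all genes and between members with and without SMC1, as a description. A run of at least 8 pyrimidines within 6 bases of the start was present in 61 of 77 members (79.2%) and in 10.3% of 18978 protein-coding genes with a canonical transcript. The share was 18 of 27 among members with SMC1 and CTCF in ΔWAPL cells, 15 of 19 among those with SMC1 and no CTCF, and 26 of 29 among those with no SMC1. In the 300 bases from 250 before to 50 after the start, on either strand, the ETS letters CCGGAAG were found in 33.8% of members and 14.2% of all genes, the YY1 letters AAGATGG in 18.2% and 6.35%, and the NRF1 letters GCGCATG in 12.99% and 5.75%. ETS matches stood in 9 of 27 members with SMC1 and CTCF, 6 of 19 with SMC1 alone and 10 of 29 without SMC1.

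The GC box GGGCGG was found in 59.7% of members and 61.8% of all genes, the TATA letters TATAAA in 9.09% and 9.65%, CCAAT in 33.8% and 35.7%, and the ZNF143 letters ACTACAA in 6.49% and 3.02%. CCAAT stood in 8 of 27 members with SMC1 and CTCF, 3 of 19 with SMC1 alone and 15 of 29 without SMC1. The CTCF core, which can share bases with the GC box, stood in 10 of 27, 2 of 19 and 1 of 29 members, 16.9% of all 77 and 24.6% of all genes; this follows the classes by CTCF. Median GC content was 60.0% in members and 63.7% in all genes.

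**Figure D5:**
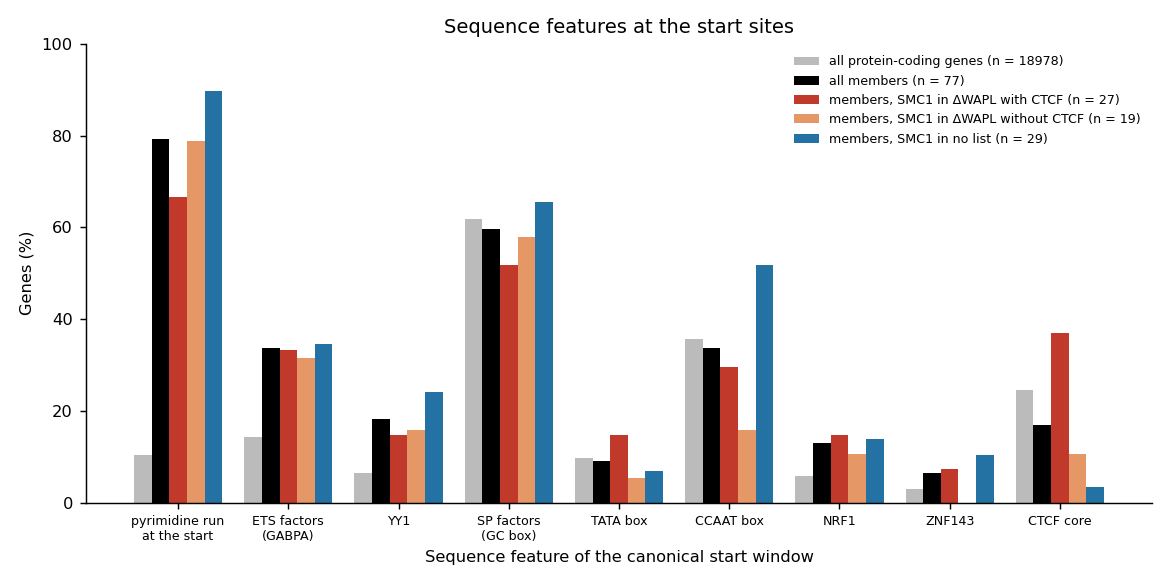
Share of genes (y axis, %) with a pyrimidine run of at least 8 bases at the start or with a match to each motif in the 300 bases around the canonical start (x axis), for all protein-coding genes, all members and 3 classes of members (colour). The pyrimidine run stands at 79.2% of members and 10.3% of all genes, and the CTCF core is most frequent in members with SMC1 and CTCF.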

How the data were processed

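Deposited narrowPeak lists of 12 libraries (SMC1, CTCF and IgG in 4 genotypes, 1 library each) were used. The authors mapped single-end reads to hg19 with Bowtie 2 and called peaks with MACS2 (version 2.1.1 by the submitters' processing notes) against IgG, by the study's methods. The lists do not name the library that gave the local background, IgG or the ChIP library itself. In all 12 lists, 100% of the recovered backgrounds above the library average were whole read numbers per 10 kb. Which library this reflects was not tested, which limits what fold enrichments, backgrounds and library averages are relative to. The deposited fold enrichment is the authors' ratio of reads piled up at a summit over those expected locally. The −log10 p and −log10 q columns, also deposited, hold the p-value and q-value that MACS2 computed. The calling threshold was not given in the sources used here. Whole pileups were recovered from the ratio and the −log10 p, where exactly 1 whole number matched the latter within 0.003, for at least 99.7% of the peaks of each list. The average pileup of a library was its lowest background, and the level is pileup over this average.

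Transcript starts came from GENCODE 44 mapped to GRCh37, the same build as hg19, and sequences from GRCh37. Numbers of genes were given with 95% Wilson intervals, which cover counting error only. Samples were grouped by the titles. With 1 library a group no test was made and no replicate block could be fitted. The named genes were those with SMC1 in wild-type or in all 4 lists, the 10 of highest ΔWAPL SMC1 fold enrichment, up to 10 each from the other 2 SMC1 lists, those with CTCF in all lists, the first 10 without SMC1 by alphabet, and RPLP0, RPLP1, RPLP2, RPL5, RPL11, RPSA, RPS27A and the Diamond-Blackfan genes; other genes were named after their values were seen, as examples of the counts. Members, gene lists, motifs and alternatives were chosen with earlier results of these data known. Python 3 with numpy, pandas, scipy, pysam and samtools was used, and gene counting was tested on simulated data. Results that name certain genes are not reported here, and these genes stay in all counts.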

Additional observations from a re-analysis of the deposited data

Results flagged for a closer look

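Of 16 comparisons of the same deletion in both backgrounds, 2 moved in opposite directions, and both concern RPS27L. Its SMC1 level (reads over the summit divided by the library average) was 14.59 in wild-type and 14.94 in ΔSCC4 cells, but 23.85 in ΔWAPL cells and 14.91 in the double knockout, so the change with SCC4 loss in ΔWAPL cells was 0.6103 of that in wild-type cells. For WAPL loss the same 4 values give 14.59 to 23.85 in the presence of SCC4 and 14.94 to 14.91 in its absence, again a ratio of 0.6103. With 1 library each, the difference was not tested. The small steps between 14.59 and 14.94 and between 14.94 and 14.91 set the directions, and 23 and 25 reads lay over the summits of the wild-type and ΔSCC4 libraries.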

How the results depend on the processing

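Under 12 other settings and 1 chosen after seeing the data for each count, and 1 for each level ratio, 121 of 159 values stayed within 1.5 times of the reported count or kept the direction of the ratio, and 38 moved. Numbers follow wild-type, ΔWAPL, ΔSCC4 and double knockout, and only those that moved are given. SMC1 counts were 9 in wild-type cells within 250 bp. With −log10 q of at least 5 they were 9, 4 (ΔSCC4) and 11 (double knockout), and with at least 10 they were 5, 20, 1 and 4. With fold enrichment of at least 5 they were 8, 25, 3 and 9, and at equal depth with −log10 p of at least 8 they were 6, 4 (ΔSCC4) and 11 (double knockout). CTCF counts within 250 bp were 18, 18, 14 and 17. SMC1 without CTCF was at 4 (ΔSCC4) and 5 (double knockout) genes within 250 bp, at 2 (ΔSCC4) with the canonical start or the 5′ end of the gene only, at 1, 0 (ΔSCC4) and 0 (double knockout) with −log10 q of at least 5, at 0, 2, 0 and 0 with at least 10, at 0, 5, 0 and 0 with fold enrichment of at least 5, and at 0, 10, 0 and 0 at equal depth. In ΔWAPL cells the interval of the SMC1 share held that of all genes with −log10 q of at least 10 (26.0% beside 19.4%) and with fold enrichment of at least 5 (32.5% beside 26.9%), and lay above it under the other settings; SMC1 without CTCF stood at 2.60% and 3.68% with −log10 q of at least 10. The stricter limits remove peaks by construction; for other moved counts the cause was not tested. No paired analysis was possible because each group holds 1 library.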
